A study of Mus musculus with 5 samples.

Results

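The insulin-like growth factor (IGF) axis was followed through 10 genes, chosen by name, of the 31055 listed in each matrix: the ligands Igf1 and Igf2, the non-coding RNA H19, the receptor Igf1r, and the binding proteins Igfbp2, Igfbp3, Igfbp4, Igfbp5, Igfbp6 and Igfbp7. The choice was made with earlier results of these data known. All 10 genes had counts. They were measured by single-cell RNA sequencing in GFP+ cells sorted from hindlimb muscle of Prx1Cre;mTmG mice on a C57Bl/6 background. In these mice every cell carries membrane tdTomato until Cre, driven by the limb mesenchyme promoter Prx1, switches it to GFP in connective tissue lineages of the limb. The GFP transcript was found in 97.3% to 99.2% of cells and tdTomato at no more than 0.0194 counts per 1000000 UMIs (unique molecular identifiers; CPM). Cells were taken without injury (d0), at d3 and d5 after a non-stabilized fracture of the tibia, and at d3 and d5 after polytrauma, which is the same fracture with compression of the surrounding muscles. The mice were males or females, 10 to 14 weeks old, in groups that the paper calls homogeneous in sex and age. The sample labels give no sex. All groups carry the same transgenes, and each condition is 1 library pooled from 2 mice. No difference between conditions could therefore be tested, and intervals given here cover counting error only.

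After filtering, 4632 cells were retained at d0, 5589 at d3 post-fracture, 6201 at d3 post-polytrauma, 1468 at d5 post-fracture and 11941 at d5 post-polytrauma. The median number of UMIs per cell was lowest at d0, with 3640, and highest at d5 post-fracture, with 34949. Summed markers of fibro-adipogenic and mesenchymal progenitors stood at 933 to 2332 CPM, those of hematopoietic cells at 5.65 to 24.3, of endothelial cells at 3.64 to 48.7 and of myogenic cells at 0.287 to 3.72, with up to 3 of 5 myogenic markers at 0 UMIs. At d3 post-polytrauma an unnamed cluster of 147 cells (2.37%) was nevertheless led by the muscle genes Myog, Mylpf and Des, and it held 7 of the 48 Igfbp2 UMIs of that library (5.68 CPM). At d5 post-polytrauma the leading genes of a pericyte-like cluster of 105 cells included the muscle genes Acta1, Mylpf, Myl1 and Ttn. With finer clustering an unnamed cluster of 84 cells there was led by Acta1. Markers of dividing cells stood at 5.96 CPM at d0 and at 179 to 368 after injury, and those of chondrocytes at 2817 CPM at d5 post-fracture, 299.6 at d5 post-polytrauma and 80.3 to 125 in the other libraries. The part of these cells in library levels was not tested beyond the clusters given further on. The conditions used for a pair of libraries follow the cell numbers of the study and not the deposited labels. Library SC5, deposited as d5 post-fracture, holds 6915 barcodes and was used as d3 post-polytrauma, and library SC_9, deposited as d3 post-polytrauma, holds 2001 barcodes and was used as d5 post-fracture. Values with the conditions as deposited are given beside each comparison of the members between whole libraries. For gene lists and cell classes the same exchange holds: d5 against d3 post-fracture trades places with polytrauma against fracture at d3, and polytrauma against fracture at d5 with d5 against d3 post-polytrauma. The libraries also fall into separate barcode sets. SC_9 and SC10 (d5 post-polytrauma) shared 944 barcodes, while either of them shared 0 to 3 with any of the other libraries, which shared 405 to 525 among themselves. With the conditions used here, day 5 and the second barcode set therefore cannot be told apart in any comparison with d0 or d3. The comparisons of d3 against d0, and of polytrauma against fracture at each day, then lie within a barcode set. With the deposited labels the second set would instead hold the polytrauma libraries, and polytrauma against fracture would cross the sets at each day. Of the d5 post-fracture cells, 59.2% had a barcode that also occurs in another library.

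IGF1 and IGF2 are secreted growth factors that act through the receptor tyrosine kinase IGF1R, and IGF1 is known for promoting growth and regeneration of muscle and bone. IGF binding proteins hold the ligands in the extracellular space. They can block access to the receptor or, once cut by proteases such as pregnancy-associated plasma protein A (Pappa), release the ligand locally. Igf2 and H19 are imprinted neighbours in the genome, Igf2 expressed from the paternal and H19 from the maternal chromosome.

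In GENCODE M21 for GRCm38, H19 is a long intergenic non-coding RNA at chr7:142575529-142578143 and Igf2 a protein-coding gene at chr7:142650766-142666816, both on the minus strand and 72.6 kb apart. Igfbp2 (chr1:72824503-72852474, plus strand) and Igfbp5 (chr1:72857932-72874884, minus strand) are separated by 5.46 kb with their 3′ ends facing each other. The other members lie apart, Igf1 at chr10:87858265-87937042, Igf1r at chr7:67952827-68233668, Igfbp3 at chr11:7206086-7213923, Igfbp4 at chr11:99041244-99054392, Igfbp6 at chr15:102144362-102149511 and Igfbp7 at chr5:77349240-77408041. Igf2 could not be measured fully. Of its 5723 exon bases, 3596 (62.8%), its 3′ end included, are also exons of Gm49394, a gene model on the same strand that is listed in the matrices with 0 UMIs in every library, and the counting program leaves out reads that fit 2 genes. Igf2 values here are thus lower limits of unknown shortfall. Antisense neighbours Igf1os, Igf2os and Gm34648 held at most 18 UMIs in any library.

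Promoter sequences (250 bases before and 50 from the RefSeq start, GRCm38.p6) were found for 9 of the 10 members, H19 being the exception. Shown here are those of Igf1 and Igfbp4, whose UMIs occurred in the same cells, and of Igfbp5 and Igfbp6, which had the largest deficits at d3. They were searched on both strands for the core promoter box with the letters TATAAA, the motif of NF-Y (letters CCAAT), the Sp1 motif (letters GGGCGG), the motif of AP-1 factors (letters TGACTCA), the motif of STAT factors (letters TTCNNNGAA) and the forkhead motif (letters TGTTTAC), and matches are in capitals. The RefSeq start of Igf1 lies 2846 bases from the GENCODE start, that of Igfbp6 176 bases.
Igf1 (chr10:87860861-87861160, plus strand): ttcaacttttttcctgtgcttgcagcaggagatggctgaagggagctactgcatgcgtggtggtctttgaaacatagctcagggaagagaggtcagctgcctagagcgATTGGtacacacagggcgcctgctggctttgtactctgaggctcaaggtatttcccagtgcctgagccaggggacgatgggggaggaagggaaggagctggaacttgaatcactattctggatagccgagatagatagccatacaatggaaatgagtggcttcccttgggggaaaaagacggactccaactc
Igfbp4 (chr11:99040994-99041293, plus strand): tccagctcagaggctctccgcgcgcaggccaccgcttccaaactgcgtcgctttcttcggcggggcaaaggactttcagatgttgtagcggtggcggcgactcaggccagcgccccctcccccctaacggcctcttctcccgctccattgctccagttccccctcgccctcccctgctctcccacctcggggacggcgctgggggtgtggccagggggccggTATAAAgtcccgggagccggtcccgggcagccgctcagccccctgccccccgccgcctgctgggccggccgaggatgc
Igfbp5 (chr1:72874816-72875115, minus strand): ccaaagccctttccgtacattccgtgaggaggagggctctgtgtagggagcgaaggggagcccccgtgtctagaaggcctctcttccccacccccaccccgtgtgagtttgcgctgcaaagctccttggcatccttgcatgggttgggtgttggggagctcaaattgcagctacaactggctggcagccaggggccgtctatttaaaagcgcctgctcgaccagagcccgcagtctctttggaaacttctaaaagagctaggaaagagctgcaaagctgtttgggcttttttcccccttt
Igfbp6 (chr15:102143936-102144235, plus strand): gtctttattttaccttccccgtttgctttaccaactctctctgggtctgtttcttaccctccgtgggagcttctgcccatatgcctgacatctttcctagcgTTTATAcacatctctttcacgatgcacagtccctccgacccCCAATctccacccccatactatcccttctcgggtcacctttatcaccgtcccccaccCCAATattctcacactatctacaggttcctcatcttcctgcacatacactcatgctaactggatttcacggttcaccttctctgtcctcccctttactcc
Positions count from the start, the base before it being position -1. Igfbp4 has TATAAA at position -28, and Igfbp6 has it on the opposite strand at position -148. Among all 32851 promoters of this length 13.6% hold TATAAA. The NF-Y motif occurs in Igf1 at position -142, on the opposite strand, and in Igfbp6 at positions -107 and -50, against 37.4% of all promoters that hold it. None of the 6 motifs occurs in the Igfbp5 window. The remaining motifs have no match in these 4 windows and are held by 35.7% (GGGCGG), 5.20% (TGACTCA), 8.30% (TTCNNNGAA) and 3.65% (TGTTTAC) of all promoters. No motif matched in both the Igf1 and the Igfbp4 window.

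Levels are UMIs of a gene summed over the cells of a library, per 1000000 UMIs. Because the assay tags transcripts at their 3′ end, levels were compared between libraries for each gene. Of the ligands, Igf1 stood at 309.6 CPM at d0, 304 at d3 post-fracture, 160.6 at d3 post-polytrauma, 1426 at d5 post-fracture and 277 at d5 post-polytrauma. The d5 post-fracture library held 8.88 times the level of the lowest, d3 post-polytrauma, and the counting intervals of d0 and d3 post-fracture overlapped. After thinning each cell to 1000 UMIs, 22.6% of cells had an Igf1 UMI at d0, 26.1% at d3 post-fracture, 14.3% at d3 post-polytrauma, 53.5% at d5 post-fracture and 22.0% at d5 post-polytrauma. Without thinning these shares ran from 44.8% at d0 to 90.6% at d5 post-fracture.
Igf2 had 60, 9, 3, 215 and 124 UMIs in the same order of libraries. Its highest share of thinned cells was 0.497%, at d0, and at d3 post-fracture no thinned cell had one. The receptor Igf1r ranged over a factor of 2.39, with 53.7 CPM at d0, 24.3 at d3 post-fracture, 22.4 at d3 post-polytrauma, 48.7 at d5 post-fracture and 40.3 at d5 post-polytrauma. Both d3 libraries were lowest, and their intervals overlapped.

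H19 was lowest at d0 and higher in each injury library. It measured 74.3 CPM at d0, 382 at d3 post-fracture, 257 at d3 post-polytrauma, 947 at d5 post-fracture and 534 at d5 post-polytrauma. No counting intervals of neighbouring levels overlapped. The share of thinned cells with an H19 UMI was 3.86% at d0, 23.1% at d3 post-fracture, 17.5% at d3 post-polytrauma, 46.5% at d5 post-fracture and 33.85% at d5 post-polytrauma.

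Among the binding proteins, Igfbp6, which is known for preferring IGF2, had the most UMIs of any member at d0. It measured 3318 CPM at d0, 123 at d3 post-fracture, 123 at d3 post-polytrauma, 279 at d5 post-fracture and 88.2 at d5 post-polytrauma. It was found in 73.7% of thinned cells at d0 and in 7.44% to 16.4% of those after injury. Igfbp5, a matrix-associated binding protein of bone and muscle, measured 879 CPM at d0, 52.4 at d3 post-fracture, 57.2 at d3 post-polytrauma, 601 at d5 post-fracture and 56.0 at d5 post-polytrauma. Only the d5 post-fracture library came near d0, with 27.8% of thinned cells against 35.3% at d0 and 4.36% to 5.78% in the other injury libraries.
Igfbp4, the main substrate of Pappa, measured 309 CPM at d0, 529.5 at d3 post-fracture, 296 at d3 post-polytrauma, 2287.5 at d5 post-fracture and 690.25 at d5 post-polytrauma. It was found in 68.5% of thinned cells at d5 post-fracture against 22.9% at d3 post-polytrauma. Igfbp7, a secreted protein that binds IGFs weakly, measured 249.8 CPM at d0, 101 at d3 post-fracture, 92.3 at d3 post-polytrauma, 1361 at d5 post-fracture and 744 at d5 post-polytrauma. Both d5 libraries stood above d0 and both d3 libraries below it. Igfbp3, the main carrier of IGFs in serum, was low, with 30.7 CPM at d0, 13.9 at d3 post-fracture, 33.4 at d3 post-polytrauma, 45.4 at d5 post-fracture and 24.6 at d5 post-polytrauma. Igfbp2, a binding protein of fetal tissues, had few counts, with 9, 12, 48, 368 and 350 UMIs in the same order of libraries, or at most 7.10 CPM.

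**Figure D1:**
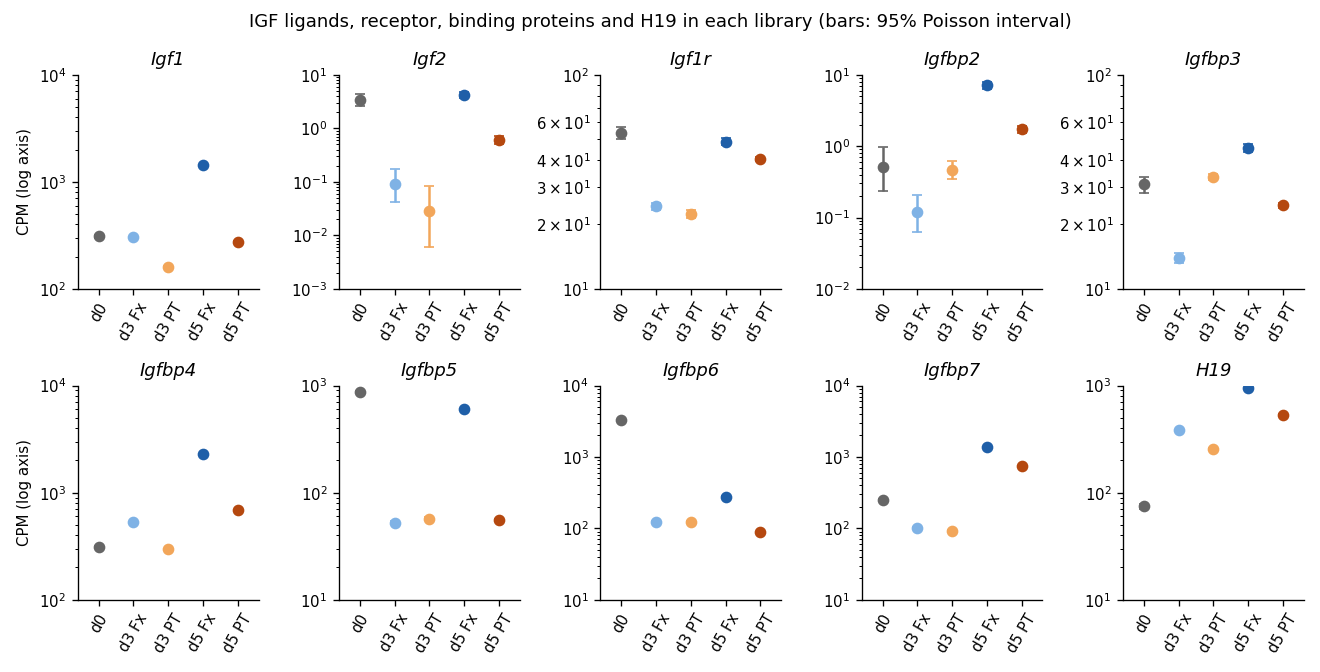
CPM of each member (log axis, own scale per panel) in the 5 libraries, where Fx is post-fracture and PT post-polytrauma; points are library values and bars 95% Poisson counting intervals, smaller than the point for most genes. Igfbp5 and Igfbp6 are highest at d0 (879 and 3318 CPM), H19 is lowest at d0 (74.3 CPM), and Igf1, Igfbp4 and Igfbp7 are highest at d5 post-fracture (1426, 2287.5 and 1361 CPM).

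The make-up of the summed binding protein counts differed between libraries. At d0 the 6 binding proteins summed to 4787 CPM, of which Igfbp6 made up 69.3% and Igfbp5 18.4%. At d3 post-fracture they summed to 819.8 CPM, and Igfbp4 alone made up 64.6%. At d5 post-fracture they summed to 4581 CPM, close to d0, with Igfbp4 at 49.9%, Igfbp7 at 29.7% and Igfbp6 at 6.10%. At d5 post-polytrauma they summed to 1605 CPM, with Igfbp7 at 46.4% and Igfbp4 at 43.0%. These shares compare tags of different genes, which can differ in how well they are captured.

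For comparisons, the log2 ratio of CPM + 1 was taken between libraries, and a gene was counted as 2-fold higher or lower among the 9388 genes with a mean of at least 5 CPM. Of the members 8 passed this minimum, each with at least 13.9 CPM in every library, and Igf2 and Igfbp2 did not. Because members were chosen with earlier results known, their counts and ranks beside all genes are descriptions only. The d3 post-fracture library against d0 asks what the first days after fracture bring. Igfbp6 was 27.0-fold lower at d3 (log2 ratio -4.74) and Igfbp5 16.8-fold lower (-4.04). Igfbp7 (-1.30), Igf1r (-1.11) and Igfbp3 (-1.09) were also more than 2-fold lower. H19 was 5.14-fold higher (2.35), Igfbp4 was 1.71-fold higher and Igf1 did not differ beyond counting error (-0.03, counting interval of the CPM ratio -0.07 to 0.02). In all, 1 of the 8 members was at least 2-fold higher and 5 were lower, while 11.5% of all genes were higher and 23.2% lower. The median of all genes was -0.25. With median-of-ratios scaling, in which the median of all genes moved to 0.29, the higher share of all 2-fold differences changed from 33.1% to 66.1%. H19 (2.92) and Igfbp4 (1.35) were then higher, only Igfbp5 (-3.47) and Igfbp6 (-4.17) lower, and Igf1 changed sign to 0.55.

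Against d3, the d5 post-fracture library was higher in 7 of the 8 members and lower in 0, where 30.0% of all genes were higher and 3.99% lower. Igfbp7 was 13.5-fold higher (log2 ratio 3.74) and Igfbp5 11.5-fold higher (3.49). Igf1 (4.69-fold, 2.23) and Igfbp4 (4.32-fold, 2.11) came next, before Igfbp3 (1.64), H19 (1.31) and Igfbp6 (1.18). Igf1r reached 0.98. The median of all genes was 0.50, and the comparison crosses the barcode sets. With median-of-ratios scaling, where the median was -0.19 and the higher share of all 2-fold differences was 33.5% instead of 88.2%, 4 members remained at least 2-fold higher, namely Igfbp7 (3.01), Igfbp5 (2.77), Igf1 (1.49) and Igfbp4 (1.37). With the conditions as deposited the comparison is SC5 against SC4, in which 1 member, Igfbp3, was 2-fold higher and Igf1 (-0.92), Igfbp4 (-0.84) and H19 (-0.57) were lower.

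At d3, polytrauma was compared with fracture alone, within a barcode set by the conditions used here. Igfbp3 was 2.40-fold higher after polytrauma (log2 ratio 1.21), the 1 member past 2-fold, where 1.25% of all genes were higher and 1.10% lower. Igf1 was 1.89-fold lower (-0.92) and Igfbp4 1.79-fold lower (-0.84). H19 was 1.48-fold lower (-0.57). Only 1.40% of the 9388 genes had a smaller ratio than Igf1 and 1.75% a smaller one than Igfbp4. Igfbp5 (0.13), Igfbp6 (0.01), Igfbp7 (-0.13) and Igf1r (-0.11) differed little, and the counting interval for Igfbp6 ran from -0.03 to 0.04. Median-of-ratios scaling moved Igfbp6 to -0.04 and kept Igfbp3 at 1.17. Within FAP/MP-like clusters Igfbp3 was at 0.74, under 2-fold, while Igf1 (-1.45) and Igfbp4 (-1.52) were past it. With the conditions as deposited this comparison is SC_9 against SC4, in which 7 members were higher, with the values given for d5 post-fracture against d3.

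At d5, polytrauma against fracture gave the widest gaps between the injuries. Igfbp5 was 10.7-fold lower after polytrauma (log2 ratio -3.40) and Igf1 5.15-fold lower (-2.36). Igfbp4 (3.31-fold, -1.73) and Igfbp6 (3.17-fold, -1.65) were lower as well. Igfbp7 (-0.87), Igfbp3 (-0.86) and H19 (-0.82) were lower by less than 2-fold, and Igf1r was at -0.27. Thus 0 of 8 members were 2-fold higher and 4 lower, where 1.05% of all genes were higher and 5.93% lower. Only 0.213% of genes had a smaller ratio than Igfbp5, and 0.746% a smaller one than Igf1. The median of all genes was -0.01, and with median-of-ratios scaling 0.17, the higher share of 2-fold differences being 15.1% and 36.1%. The same 4 members were lower under that scaling, Igfbp5 at -3.20 and Igf1 at -2.16. When cells with shared barcodes were left out, 599 cells remained at d5 post-fracture, and Igfbp5 (-3.41), Igf1 (-2.12), Igfbp4 (-1.63) and Igfbp6 (-1.78) stayed lower, with Igfbp7 (-1.06) now past 2-fold. The cells left out were unevenly spread over clusters. They made up 76.8% of chondrocyte-like cells (median 47279 UMIs) and 10.5% of a pericyte-like cluster (median 13409 UMIs). The 599 cells thus differ from the whole library in make-up, and the part of this in the ratios was not tested. In d5 post-polytrauma, 334 cells had a barcode with more UMIs in the other library. These cells, with a median of 1254.5 UMIs, held Igfbp5 at 358 CPM and Igf1 at 855, against 55.2 and 276 in the other cells of that library. Their part in the levels was measured by leaving them out, which moved no ratio of any member across 2-fold. Xist led an unnamed d5 post-polytrauma cluster (2.80% of cells), of which 54.8% had a barcode that also occurs in another library. Whether the 2 d5 libraries differ in sex was not tested. With the conditions as deposited the comparison is SC10 against SC5, in which 3 members were higher and 0 lower.

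From d3 to d5 after polytrauma, Igfbp7 was 8.07-fold higher (log2 ratio 3.00), Igfbp4 2.33-fold (1.22) and H19 2.08-fold (1.05). Igfbp5 did not differ beyond counting error (-0.03, counting interval -0.08 to 0.01), and Igfbp6 was lower (-0.48). This made 3 of 8 members higher and 0 lower, where 22.3% of all genes were higher and 2.96% lower, with a median of 0.42. With median-of-ratios scaling (median -0.03, higher share of 2-fold differences 56.9% instead of 88.3%) only Igfbp7 (2.51) stayed past 2-fold. Igfbp5 was thus at 3.49 from d3 to d5 in the fracture libraries and at -0.03 in the polytrauma libraries. The difference was not tested. With the conditions as deposited the comparison is SC10 against SC_9, in which 4 members were lower and 0 higher.

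**Figure D2:**
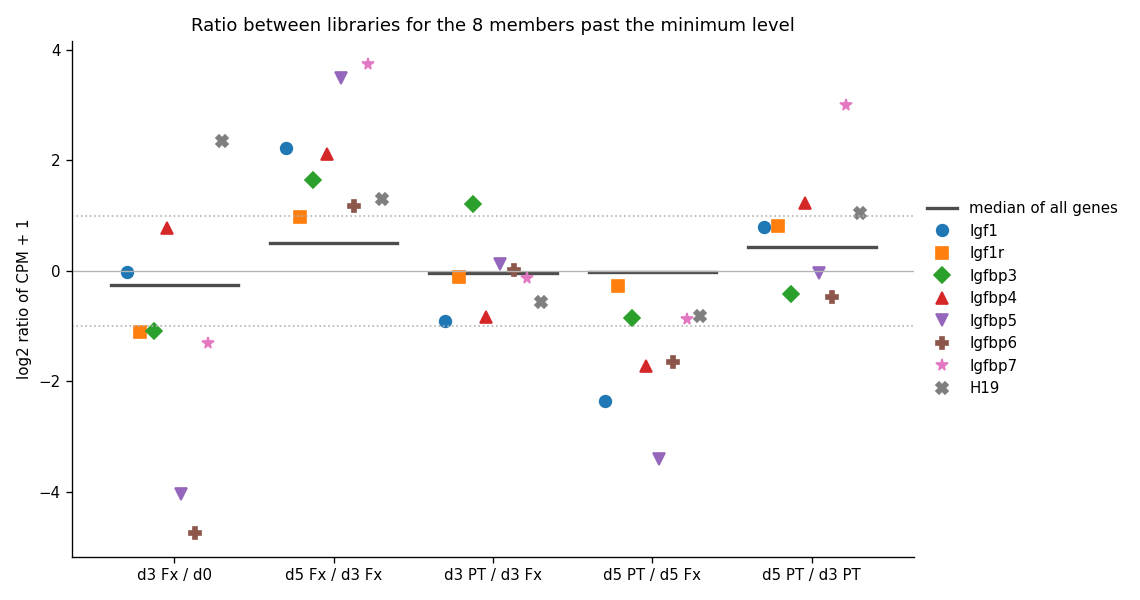
log2 ratio of CPM + 1 in the 5 comparisons (Fx, post-fracture; PT, post-polytrauma) for the 8 members past the minimum level; dark lines are medians over 9388 genes and dotted lines mark 2-fold. Igfbp5 lies at -4.04, 3.49, 0.13, -3.40 and -0.03 from left to right, and Igfbp7 is the highest member in both d5 against d3 comparisons (3.74 and 3.00).

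Cells were clustered in each library without the members, and clusters were named from marker lists. FAP/MP-like clusters (fibro-adipogenic and mesenchymal progenitors) were named from any 3 or more of Prrx1, Cxcl12, Pdgfra, Ly6a and Cd34, and pericyte-like clusters likewise from markers such as Cspg4, Des, Mylk, Rgs5 and Notch3. A marker counted only where it stood above the mean of the library's other clusters, so names are relative within a library. Clusters compared within a library share its depth, but their values carry no replicate error. Igf1 was lowest in pericyte-like clusters in 3 libraries, with 21.5 CPM at d0, 23.9 at d3 post-fracture and 12.2 at d3 post-polytrauma. Its highest clusters were osteoblast-like at d0 (904 CPM, 66 cells), FAP/MP-like at d3 post-fracture (867 CPM, 1039 cells), FAP/MP-like at d3 post-polytrauma (345 CPM, 1479 cells), an unnamed cluster led by Gzme and Slpi at d5 post-fracture (3028 CPM, 225 cells) and a FAP/MP-like cluster led by Pi16 and C3 at d5 post-polytrauma (1294 CPM, 1016 cells). At a finer resolution of 1 the highest d0 cluster was an unnamed one led by Saa1 and Trf (928 CPM, 257 cells). Igfbp4 was highest in that same d3 post-fracture cluster (2025 CPM), which held 50.4% of all Igfbp4 UMIs of its library, against 106 CPM in the unnamed cluster of 1633 cells led by Ass1 and Il11. It was also highest in a FAP/MP-like cluster at d5 post-fracture (5339 CPM) and at d5 post-polytrauma (2748 CPM). Igf1 and Igfbp4 thus had their highest cluster in common at d3 post-fracture and, after polytrauma, at both days.

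Igfbp6 at d0 was high in nearly all clusters and lowest in pericyte-like cells (328 CPM). The FAP/MP-like cluster led by Stmn4 and Pi16 stood at 6310 CPM and held 39.3% of the library's Igfbp6 UMIs, and 38 perineurial-like cells, the sheath of nerves, stood at 10167 CPM. At d5 post-fracture a FAP/MP-like cluster of 134 cells led by Pi16 held 1949 CPM and 53.9% of all Igfbp6 UMIs, whereas at d5 post-polytrauma no cluster exceeded 324 CPM. Igfbp5 at d0 was found in osteoblast-like (2165 CPM), Stmn4 and Pi16 FAP/MP-like (1512 CPM) and pericyte-like clusters (1326 CPM). After injury its highest cluster was pericyte-like at d3 post-fracture (1240 CPM), d3 post-polytrauma (375 CPM; at a finer resolution of 1 a tenocyte-like cluster, with 386 CPM) and d5 post-polytrauma (539 CPM), and at d5 post-fracture the Pi16 cluster reached 2116 CPM, below only the 19 cells of a pericyte-like cluster (3788.5 CPM). The leading genes of the d5 post-polytrauma pericyte-like cluster also included the muscle genes Acta1 and Mylpf. The median cluster stood at 664 CPM of Igfbp5 at d0, 60.4 at d3 post-fracture, 34.6 at d3 post-polytrauma, 343 at d5 post-fracture and 54.6 at d5 post-polytrauma.

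H19 was highest in chondrocyte-like cells at d5, with 1749.8 CPM in 177 cells post-fracture and 1392 CPM in 223 cells post-polytrauma. Of these cells 76.8% post-fracture and 43.0% post-polytrauma had a barcode that also occurs in another library. The share over all d5 post-polytrauma cells was 2.86%. These H19 values may thus not be independent, which was not tested. At d0 H19 was highest in osteoblast-like cells (446 CPM) and lowest in pericyte-like cells (15.6 CPM). At d3 post-fracture it stayed at 9.94 CPM in the lowest pericyte-like cluster while the median cluster stood at 414 CPM. Igfbp7 was highest in pericyte-like clusters of at least 50 cells at d0 (517.5 CPM), d3 post-fracture (394 CPM), d3 post-polytrauma (402 CPM) and d5 post-polytrauma (3007.5 CPM). The leading genes of the last of these also included the muscle genes Acta1, Mylpf, Myl1 and Ttn. For Igfbp7 all 20 d5 clusters of at least 50 cells, with 458 CPM or more, stood above all 20 d3 clusters, with 402 CPM or less, which was so for no other member. Since both libraries used as d5 belong to the second barcode set, day and set cannot be told apart here. Free RNA was gauged in hematopoietic-like cells, a type outside the Prx1 lineage that was named in the polytrauma libraries. At d3 post-fracture a cluster of 22 cells led by Lyz2, Cd74 and Pf4 stayed unnamed and was not used. The hematopoietic-like cells came through the same sort for GFP, and whether the member counts in them are free RNA was not tested. In 92 such cells at d3 post-polytrauma, with a median of 3786 UMIs against 15688 in the whole library, H19 stood at 58.4 CPM, Igfbp6 at 58.4, Igfbp4 at 43.2, Igfbp7 at 21.6 and Igfbp5 at 17.3. Of the thinned cells 0 of 92 had an H19 UMI, which allows a share of up to 3.26% by 3 counts and 3.93% by the exact binomial interval, against 17.5% of the whole library. Igfbp4 was found in 1.09% of them (0.0275% to 5.91%) against 22.9% of the library, and Igfbp7 in 0 of 92 against 10.9%. The shares of Igfbp6 (5.43%, 1.79% to 12.2%) and Igfbp5 (1.09%, 0.0275% to 5.91%) have intervals that reach the library shares (12.0% and 5.53%). These 2 genes therefore cannot be told from background by the share of thinned cells. By summed level both stood lower than in the library, Igfbp6 at 58.4 against 123 CPM and Igfbp5 at 17.3 against 57.2 CPM. In 28 such cells at d5, with a median of 6706 UMIs, Igfbp4 and Igfbp7 were each found in 10.7% (2.27% to 28.2%), against 40.8% and 51.7% of the library. The shares of H19 (21.4%, 8.30% to 40.95%), Igf1 (25.0%, 10.7% to 44.9%), Igfbp6 (3.57%, 0.0904% to 18.3%) and Igfbp5 (0 of 28, up to 12.3%) have intervals that reach those of the library (33.85%, 22.0%, 7.44% and 4.36%), so these cannot be told from background by this measure. Macrophages are themselves known to make IGF1. The share of H19 at d0 (3.86%) has no such cells for comparison.

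**Figure D3:**
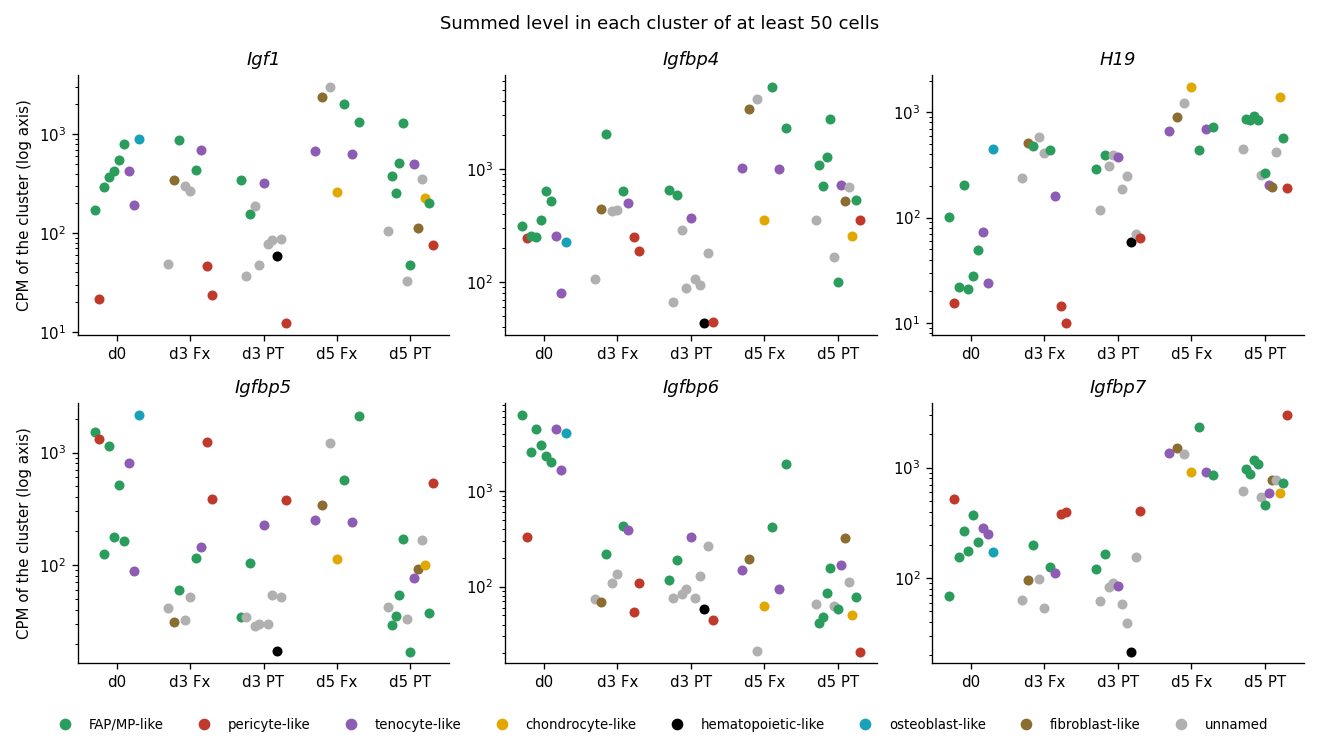
CPM (log axis) of 6 members in each cluster of at least 50 cells, by library (Fx, post-fracture; PT, post-polytrauma), coloured by the name of the cluster. Pericyte-like clusters (red) are low for Igf1 and high for Igfbp5 and Igfbp7, chondrocyte-like clusters (yellow) are highest for H19 at d5 (1749.8 and 1392 CPM), and every d5 cluster lies above every d3 cluster for Igfbp7. The leading genes of the d5 PT pericyte-like cluster also included the muscle genes Acta1 and Mylpf. Of the d5 chondrocyte-like cells 76.8% (Fx) and 43.0% (PT) had a barcode that also occurs in another library.

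Within FAP/MP-like clusters alone, as named here, which held 73.4% of cells at d0, 24.3% at d3 post-fracture, 39.1% at d3 post-polytrauma, 20.5% at d5 post-fracture and 53.4% at d5 post-polytrauma, the pattern differed from that of whole libraries. Since names are relative within a library, these pools need not be the same class of cells in each. At d5 post-fracture a cluster led by Mfap4 and Eln was fibroblast-like, but FAP/MP-like at a finer resolution of 1. Igfbp4 measured 346 CPM at d0, 1801 at d3 post-fracture, 627 at d3 post-polytrauma, 3987 at d5 post-fracture and 1035 at d5 post-polytrauma, so that its d3 against d0 log2 ratio was 2.38 in place of 0.77. Igf1 measured 361, 785, 287, 1721.5 and 422 CPM in the same order, and its d3 against d0 ratio was 1.12 in place of -0.03. Igfbp7 measured 174 and 189 CPM at d0 and d3 post-fracture, a ratio of 0.12 in place of -1.30. Igfbp6 (4007, 276, 152, 1105 and 68.9 CPM) and Igfbp5 (757, 74.9, 57.7, 1263 and 52.0 CPM) kept the order d0 and d5 post-fracture above the rest. The d5 polytrauma against fracture ratio was -4.58 for Igfbp5 and -3.98 for Igfbp6 in these clusters, and H19 was at 0.34 instead of -0.82. From d3 to d5 post-polytrauma, which takes the place of this comparison under the deposited labels, Igfbp5 was at -0.15, Igfbp6 at -1.13 and H19 at 1.18. H19 at d5 against d3 post-fracture was at 0.27 instead of 1.31. Igfbp3 was under 2-fold at d3 post-fracture against d0 (-0.45) and at d3 post-polytrauma against post-fracture (0.74), and Igf1r was at -0.98 at d3 post-fracture against d0. In pericyte-like cells Igfbp5 measured 1326 CPM at d0 (745 cells), 688 at d3 post-fracture (118 cells), 375 at d3 post-polytrauma (54 cells), 2452.5 at d5 post-fracture (39 cells) and 539 at d5 post-polytrauma (105 cells). The leading genes of the 105 cells also included the muscle genes Acta1 and Mylpf. Summed pericyte markers stood at 729 CPM at d0 and at 63.9 to 223 CPM after injury. Without pericyte-like, tenocyte-like, hematopoietic-like and perineurial-like clusters, Igfbp5 at d3 post-fracture was still lower than at d0 (-4.18), and Igfbp7 was at -0.82. Fewer cells of a type and less RNA per cell cannot be told apart in library sums.

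Igf1 and Igfbp4 were found together in cells. After thinning to 1000 UMIs, 14.9% of d3 post-fracture cells had UMIs of both genes, where the product of the single shares is 9.05%. The corresponding values were 7.28% and 5.89% at d0, 5.77% and 3.27% at d3 post-polytrauma, 45.1% and 36.6% at d5 post-fracture and 14.7% and 8.98% at d5 post-polytrauma. Over unthinned cells Pearson's r of the log-scaled share of UMIs was 0.17 at d0, 0.63 at d3 post-fracture, 0.51 at d3 post-polytrauma, 0.76 at d5 post-fracture and 0.65 at d5 post-polytrauma, as a description, since cells of a library share depth and origin. Median depth differed, from 3640 UMIs at d0 to 34949 at d5 post-fracture, so r is not comparable between libraries. The part of depth in r was not tested. Igfbp5 and Igfbp6 were found together in 24.6% of d0 cells, where the product of their shares is 26.0%, and in 7.29% against 4.56% of d5 post-fracture cells. Igf2 and H19 were found together in 6 thinned cells or fewer in each library, where Igf2 itself was found in at most 23. The share with both was 0.0648% at d0, where the product of the single shares is 0.0192%. It was 0.0161% against 0.00282% at d3 post-polytrauma, 0.204% against 0.0951% at d5 post-fracture and 0.0502% against 0.0283% at d5 post-polytrauma. At d3 post-fracture no thinned cell had Igf2. These shares rest on few cells.

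Over 50 sums of cells by library and cluster, 5154 genes with a mean of at least 20 CPM were ranked by Pearson's r of log2(CPM + 1) with each member. The points share libraries and depth, so r is given without a test. Igf1 was most like Mmp2 (0.90), Abi3bp (0.87) and Gas6 (0.86), and Igfbp4 most like Gas6 (0.89), Col14a1 (0.84) and Igf1 itself (0.83). Gas6 was among the top 3 of both. Igfbp6 was most like Myoc (0.90), Gsn (0.89) and Ntn1 (0.88), Igfbp5 most like Nbl1 (0.79), Arrdc3 and Clu (both 0.76), and H19 most like P4ha3 (0.83), Sfrp2 (0.81) and the ribosomal protein gene Rps21 (0.80). Igfbp7 reached 0.92 with Nfe2l1 and 0.91 with Macf1, and Igf1r was most like Wac (0.88), Snx18 and Mef2d (both 0.85). Igfbp3 reached 0.64 with Dab2, 0.61 with Fbln1 and 0.60 with the growth hormone receptor gene Ghr. Igfbp2 (Matn4, 0.64) and Igf2 (Nxf1, 0.74) rest on few UMIs. Between members the highest r after Igf1 with Igfbp4 was 0.60, for Igf1r with Igfbp7 and for Igfbp4 with Igfbp7.

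**Figure D4:**
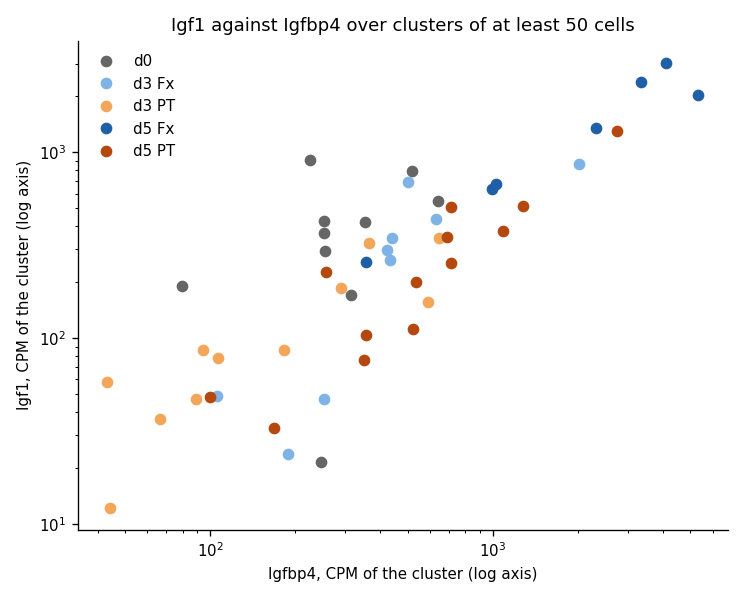
CPM of Igf1 against CPM of Igfbp4 (both log axes) over 50 clusters of at least 50 cells, coloured by library (Fx, post-fracture; PT, post-polytrauma); each point is a cluster. Over all these clusters r = 0.83, which mixes differences between libraries with those between clusters. Igf1 runs from 12.2 CPM in a d3 post-polytrauma pericyte-like cluster to 3028 CPM in a d5 post-fracture cluster. At d0 and d5 post-fracture the cluster highest in Igf1 is not the one highest in Igfbp4.

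Other genes of the axis were described by lists, to be read against all genes: at d3 post-fracture against d0 11.5% were higher and 23.2% lower by CPM (24.1% and 12.4% with median-of-ratios scaling), and at d5 against d3 post-fracture 30.0% and 3.99% (10.4% and 20.6%). Of 12 genes of IGF receptors and signalling, all past the minimum, 6 were 2-fold lower and 0 higher at d3 post-fracture against d0, led by Pik3r1, a regulatory subunit of PI3-kinase (88.3 to 15.8 CPM), Foxo1 (36.7 to 8.89 CPM) and the receptor substrate Irs2 (149 to 46.3 CPM). With median-of-ratios scaling 4 were lower and 1 higher. At d5 post-fracture 7 were higher than at d3 and 0 lower, led by Irs1 (6.95 to 50.5 CPM), and 4 and 0 with median-of-ratios scaling. Irs1 (13.96 CPM) and Pik3r1 (22.9 CPM) were the 2 genes lower at d5 post-polytrauma than post-fracture. The median of the list was -1.03, 1.07, -0.03, -0.61 and 0.68 in the 5 comparisons in the order above. In all lists the minimum is a mean over libraries, which a gene can pass mainly through a library where it is high. Of 10 IGFBP proteases and their inhibitors 6 passed the minimum. Htra3, a serine protease placed in this list, was highest at d0 and next highest at d5 post-fracture, as were Igfbp5 and Igfbp6. This order was not particular to Htra3. Adamts1 of the same list (391 CPM at d0 and 296 at d5 post-fracture) and Dcn of another list (12960 and 2910 CPM) had it too. Htra3 stood at 234 CPM at d0, 17.4 at d3 post-fracture, 16.8 at d3 post-polytrauma, 73.4 at d5 post-fracture and 18.1 at d5 post-polytrauma. Whether Htra3 cuts either of these binding proteins was not tested. Htra1, of the same list, was instead highest at d5 post-fracture, with 190.78 CPM against 87.8 at d0. Pappa, which cuts Igfbp4, stood at 14.9 CPM at d0, 41.7 at d3 post-fracture, 24.0 at d3 post-polytrauma, 48.4 at d5 post-fracture and 40.5 at d5 post-polytrauma. In this list 1 gene was higher and 3 lower at d3 post-fracture against d0, 4 and 0 at d5 against d3 post-fracture, 0 and 3 at d5 post-polytrauma against post-fracture, 0 and 0 at d3 post-polytrauma against post-fracture, and 1 and 0 at d5 against d3 post-polytrauma. With median-of-ratios scaling these counts were 1 and 2, 2 and 0, 0 and 2, 0 and 0, and 0 and 0. Of all genes 1.05% were higher and 5.93% lower at d5 post-polytrauma against post-fracture (2.40% and 4.24% with median-of-ratios scaling). At d3 post-polytrauma against post-fracture 1.25% were higher and 1.10% lower (1.19% and 1.35%). From d3 to d5 post-polytrauma 22.3% were higher and 2.96% lower (10.0% and 7.57%).

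The 6 genes of the growth hormone route included 3 lower at d3 post-fracture than at d0, Cish (25.75 to 4.22 CPM), Stat5b (18.9 to 4.36 CPM) and Ghr (26.7 to 12.8 CPM). With median-of-ratios scaling 2 were lower, and Ghr was at -0.46. Ghr stood at 63.0 CPM at d5 post-fracture and 23.7 at d5 post-polytrauma. Of 16 imprinted genes past the minimum 12 were 2-fold lower and 2 higher at d3 post-fracture against d0, with Dcn, imprinted in placenta (12960 to 1169 CPM) and Cdkn1c (49.5 to 6.75 CPM) lower, Slc38a4 (0.860 to 14.7 CPM) higher, and a list median of -1.41 against -0.25 over all genes. With median-of-ratios scaling 7 were lower and 2 higher, with medians of -0.86 and 0.29. H19, itself imprinted and outside this list, was 5.14-fold higher in the same comparison. At d5 post-fracture 9 were higher than at d3 and 0 lower, among them Cdkn1c (160 CPM) and Peg3 (22.1 to 300.3 CPM), against 5 higher and 1 lower with median-of-ratios scaling, and at d5 post-polytrauma 6 were lower than post-fracture and 2 higher under both scalings, where 5.93% of all genes were lower and 1.05% higher by CPM. Of the 8 other binding genes 4 passed the minimum. Igf2bp2, which binds Igf2 mRNA, stood at 10.1 CPM at d3 post-fracture against 27.1 at d3 post-polytrauma and at 4.51 at d5 post-fracture against 13.4 at d5 post-polytrauma, the 1 gene of its list past 2-fold between the injuries on both days. Igfbp1, the binding protein of liver, had no UMI in any library.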

How the data were processed

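GFP+ cells from 5 libraries were prepared with a droplet kit that tags transcripts at their 3′ end. The authors aligned reads to mm10 with Cell Ranger (the matrix headers give version 3.1.0) and deposited filtered matrices of UMI counts per gene and barcode, with no further normalization; Seurat 3.1.2 is named in the submitters' processing notes. Here, cells with 350 to 8000 genes, under 20% mitochondrial UMIs and at least 1000 UMIs were kept (1468 to 11941 per library, 17437190 to 202233564 UMIs). UMIs were summed per library and given as CPM with 95% exact Poisson intervals, and shares of cells after thinning to 1000 UMIs with 95% exact binomial intervals. The log2 ratio uses a pseudocount of 1 CPM, and counting intervals of ratios are without it. With 1 library per condition no test was made. Clusters (Leiden, resolution 0.5, 20 neighbours, 20 principal components of 2000 variable genes, members left out of the variable genes, scanpy 1.11.5) were named from at least 3 markers of a type. A marker counted if found in at least 10% of the cluster's cells and above the mean of the library's other clusters. Tied clusters, those with more leading genes of another type and low-depth clusters without a leading marker stayed unnamed. The name fibroblast-like gave way to any other. Scrublet's automatic threshold marked almost no cells, so doublets were kept, and an alternative left out the highest scores at 0.8% per 1000 cells. Code was tested on simulated data. Positions are from GENCODE M21 by identifier. Promoters are from RefSeq by symbol. Of the listed genes, 1 was not matched by symbol. Members and lists were chosen with earlier results of these data known. At most 3 genes per list and comparison were named by size of log2 ratio among those past 2-fold, and Pappa was added after its values were seen. Alternatives were other scalings, cell filters, clusters, pseudocount and the deposited conditions, of which 3 were chosen after seeing the data. One gene ranked by likeness is not reported here.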

Additional observations from a re-analysis of the deposited data

How the results depend on the processing

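No paired analysis was possible because each condition has 1 library. Of the 50 log2 ratios (10 members in 5 comparisons), 26 were past 2-fold. This count takes in Igf2 and Igfbp2, which did not pass the minimum level. The shares of all genes past 2-fold are given with each comparison above. All 26 stayed so with no minimum of UMIs, with possible doublets left out, and with shared barcodes left out only where they hold fewer UMIs. A pseudocount of 0.1 CPM can only widen a ratio, so all 26 had to stay, and 5 more passed 2-fold. The number kept was 25 with equal weight of cells, with all shared barcodes left out, without clusters of other cell types and with cells of at least 5000 UMIs. It was 18 with median-of-ratios scaling, 17 in FAP/MP-like clusters only and 9 with the conditions as deposited. Ratios newly past 2-fold numbered 15 with the conditions as deposited, 8 in FAP/MP-like clusters only and 4 with equal weight of cells. They numbered 2 without clusters of other cell types. With all shared barcodes left out, with cells of at least 5000 UMIs and with median-of-ratios scaling there was 1 each. Leaving out clusters of other cell types kept 939 of 1468 d5 post-fracture cells. It removed tenocyte-like clusters of 354 and 136 cells there, each with 0 tenocyte markers among its 10 leading genes. At resolution 1 a cluster led by Enpp1 and Lrrc15, leading genes also of the 354 cells, was fibroblast-like. These removed cells may thus not all be another cell type. The cause of each change below was not tested, except that with the deposited conditions libraries are exchanged by construction. The d3 post-fracture against d0 comparison uses the same libraries either way, so its ratios were kept by construction. In the other comparisons only Igfbp3 was kept under the deposited conditions. It was at 1.64 at d5 against d3 post-fracture and at 1.21 at d3 post-polytrauma against post-fracture.
With the conditions as deposited, members 2-fold higher at d5 against d3 post-fracture numbered 1 in place of 7, with Igf1 at -0.92, Igf2 at -0.083, Igfbp4 at -0.84, Igfbp7 at -0.13 and H19 at -0.57. At d3 post-polytrauma against post-fracture 7 were higher in place of 1. At d5 post-polytrauma against post-fracture 3 were higher in place of 0 and 0 lower in place of 4, with Igf1 at 0.78, Igf2 at 0.65, Igfbp2 at 0.90 and Igfbp4 at 1.22. At d5 against d3 post-polytrauma 0 were higher in place of 3 and 4 lower in place of 0, with Igfbp4 at -1.73, Igfbp7 at -0.87 and H19 at -0.82.
With median-of-ratios scaling, 2 members were higher and 2 lower at d3 post-fracture against d0 (1 and 5 by CPM), 4 were higher at d5 against d3 post-fracture and 1 at d5 against d3 post-polytrauma. In FAP/MP-like clusters only, the d3 against d0 counts were 3 higher and 2 lower, with Igfbp7 at 0.12. At d3 polytrauma against fracture 0 were then higher (Igfbp3 at 0.74) and 2 lower (Igf1 and Igfbp4), at d5 Igfbp2 was at 1.23, and at d5 against d3 post-polytrauma 1 was lower. With equal weight of cells 2 were higher at d3 post-fracture against d0 and 1 lower at d3 post-polytrauma, and with cells of at least 5000 UMIs 2 were higher at d3 against d0. For FAP/MP-like clusters, equal weight and the minimum of 5000 UMIs, shares of all genes past 2-fold are not given. These counts therefore cannot be set against all genes.
With thinning to 2000 UMIs, the share of cells with an Igf1 UMI was 35.4% at d0 and 65.6% at d5 post-fracture. At resolution 1 the highest cluster of Igf1 at d3 post-polytrauma was tenocyte-like (391 CPM) and that of Igfbp4 FAP/MP-like (852 CPM), no longer the same, and that of Igfbp5 there was tenocyte-like (386 CPM). The highest cluster of Igf1 at d0 was then unnamed (928 CPM) and no longer osteoblast-like. Igf2 and Igfbp2 had as few as 3 and 9 UMIs in a library, the former in a library of 103287049 UMIs.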
